A study of Mus musculus with 6 samples.

Results

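Genes of the NF-kB system, 10 in all, were followed through 14 lung cell types: Nfkbia, Nfkbiz, Nfkb1, Nfkb2, Relb, Tnfaip3, Tnfaip2, Bcl3, Zc3h12a and Sod2. They were chosen by symbol, and all 10 were found among the 29492 genes with a row in any of the 6 libraries. Each library was single-cell RNA sequencing of the lung of male C57BL/6J mice, 12 weeks old, taken on day 3, and each of 3 groups had 2 libraries. Controls received PBS. The LPS group received bacterial lipopolysaccharide at 1 mg/kg. The remaining group received the same LPS dose and 7 activations of the subcoeruleus nucleus (SLC), a brainstem region, a condition the labels call SLC-Gq. The sources used here do not give the timing of the activations around the LPS dose. SLC activation was seen only on top of LPS, since mice with activation alone are not analysed here. Below, control_1 and control_2, LPS_1 and LPS_2, and SLC_LPS_1 and SLC_LPS_2 name the libraries, and p-values measure only the spread between these samples.

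NF-kB is a family of transcription factor dimers held in the cytoplasm by inhibitor proteins and released when receptors for bacterial products or cytokines are engaged. Several of its target genes encode its own brakes, so that a signal is followed by resynthesis of inhibitors. In the lung the pathway is known for driving cytokine production and neutrophil recruitment after LPS. Nfkb1, Nfkb2 and Relb encode subunits: p105 and its product p50, p100 and its product p52, and RelB, a partner of p52. Nfkbia encodes the inhibitor I kappa B alpha. Nfkbiz and Bcl3 encode nuclear members of the I kappa B family that act with p50 or p52 at chosen target genes. Tnfaip3 encodes A20, which edits ubiquitin chains and limits signalling from Toll-like and TNF receptors, and Zc3h12a encodes regnase-1, an RNase that destroys cytokine mRNAs. Sod2, the mitochondrial manganese superoxide dismutase, and Tnfaip2, a TNF-induced gene, are known targets of the pathway.

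Promoter sequence is shown for the 4 members whose 250 bases before a transcription start held the kappa B consensus, the 10-letter site bound by NF-kB, searched on both strands. Windows were matched for 7 of the 10 members in a table of RefSeq starts (build GRCm38.p6). Those of Bcl3, Tnfaip2 and Zc3h12a held no match, which says only that these letters are not in the window. Of all 32851 windows of this length, 3.90% held a match. Capitals mark the matches, which may overlap each other.
Sod2, chr17:13007589-13007838, plus strand: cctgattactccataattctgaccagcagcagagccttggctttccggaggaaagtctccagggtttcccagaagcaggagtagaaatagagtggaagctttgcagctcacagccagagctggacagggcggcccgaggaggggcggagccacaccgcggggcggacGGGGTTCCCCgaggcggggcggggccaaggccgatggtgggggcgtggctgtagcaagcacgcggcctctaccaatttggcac
Nfkbia, chr12:55492648-55492897, minus strand: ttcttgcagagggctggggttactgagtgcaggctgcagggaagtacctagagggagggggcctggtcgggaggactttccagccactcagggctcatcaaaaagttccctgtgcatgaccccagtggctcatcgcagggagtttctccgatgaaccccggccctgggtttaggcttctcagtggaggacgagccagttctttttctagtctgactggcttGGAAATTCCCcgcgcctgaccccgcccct
Tnfaip3, chr10:19015411-19015660, minus strand: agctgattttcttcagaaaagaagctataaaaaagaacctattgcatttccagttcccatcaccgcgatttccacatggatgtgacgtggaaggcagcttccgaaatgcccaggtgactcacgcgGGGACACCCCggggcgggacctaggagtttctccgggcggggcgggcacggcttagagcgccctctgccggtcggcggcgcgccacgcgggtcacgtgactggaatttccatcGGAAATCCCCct
Nfkb2, chr19:46304487-46304736, plus strand: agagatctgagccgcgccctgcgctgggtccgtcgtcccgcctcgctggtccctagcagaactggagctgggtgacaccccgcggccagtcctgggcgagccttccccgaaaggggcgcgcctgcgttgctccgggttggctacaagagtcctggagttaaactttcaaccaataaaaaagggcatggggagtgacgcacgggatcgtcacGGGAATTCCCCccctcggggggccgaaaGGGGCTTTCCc
The match began 83 bases before the start in Sod2 and 29 bases before it in Nfkbia. Tnfaip3 had matches beginning 125 and 12 bases before the start. In Nfkb2 they began from 39 to 11 bases before this start. No binding was measured, so the matches describe the reference sequence only.

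Per library 11608 to 13710 cells were kept, whose median depth was 1134 to 2606 UMIs. Of them 72.8% to 86.4% were assigned to a cell type by marker genes. Levels are CPM, the share of a cell type's summed UMIs in a library that a gene holds, and they are compared within a gene. Neutrophils made up 13.4% to 17.0% of kept cells in controls and 37.6% to 52.0% in treated libraries. The median cell had 7.99% or 8.82% mitochondrial UMIs in a control library, and 1.23% to 2.86% in a treated one. Free RNA, estimated from nearly empty barcodes, was lowest in LPS_2: in alveolar macrophages it was expected to supply 2.83% of UMIs there and 14.0% to 26.7% in the other libraries. In club cells the expected share was 98.1% in LPS_1 and 100% in both controls, so club cell values there are close to the free RNA itself. From 0 to 6 barcodes were shared between any pair of libraries.

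In control lungs neutrophils held the highest mean level of 7 members: Nfkbia, Nfkbiz, Tnfaip3, Tnfaip2, Bcl3, Zc3h12a and Sod2. Nfkbia stood at 12341 and 12467 CPM in neutrophils of control_1 and control_2. The next type, mature dendritic cells, had 4479 and 3904 CPM, and B cells were last with 801 and 889 CPM. Neutrophils ranked first for Nfkbia in 6 of 6 libraries. Levels of neighbouring types overlapped in 6 of 13 pairs, for example in Ly6c2 monocytes and alveolar macrophages. Tnfaip3 had 5644 and 4913 CPM in neutrophils and stayed high in dendritic cells and in some lymphocytes. T cells had 2256 and 1763 CPM and NK cells 2619 and 1927 CPM of Tnfaip3, while B cells had 359 and 337 CPM. Below neutrophils the order of Tnfaip3 is loose, since 9 of 13 neighbouring pairs overlapped.

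Nfkbiz had a second high type. Nonclassical monocytes, the patrolling blood monocytes, had 2952 and 2629 CPM against 4174 and 4309 CPM in neutrophils. Ly6c2 monocytes came next with 1004 and 1095 CPM. In controls Sod2 overlapped in neutrophils (1145 ± 107 CPM, SD, n = 2), nonclassical monocytes (1067 ± 83.0 CPM) and Ly6c2 monocytes (1064 ± 15.5 CPM). It was 496 ± 61.9 CPM in alveolar macrophages and lowest in B cells at 152 ± 19.9 CPM. Tnfaip2 was highest in neutrophils (3180 ± 221 CPM) and then in alveolar macrophages (1463 ± 161 CPM), without overlap. Bcl3 reached 106 ± 2.37 CPM in neutrophils and was lowest in alveolar macrophages at 5.71 ± 1.5 CPM. Zc3h12a was 666 ± 12.5 CPM in neutrophils and 408 ± 94.6 CPM in nonclassical monocytes.

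The subunit genes had other leading types. Relb, and by a small margin Nfkb2, had the highest control mean in mature dendritic cells, the activated dendritic cells that carry antigen to lymph nodes. Relb was 277 and 273 CPM there and 156 and 170.4 CPM in neutrophils, the next type. Mature dendritic cells ranked first for Relb in 6 of 6 libraries. They ranked first for Nfkb2 in 5 of 6, the exception being LPS_2, which held only 8 such cells. In the other 5 libraries these Nfkb2 levels rest on 8 to 14 UMIs. The lead was 82.4 CPM against 81.9 CPM in Ly6c2 monocytes of control_1, and 76.4 CPM against 72.9 CPM in neutrophils of SLC_LPS_1. Counts this low do not settle the rank for Nfkb2. Nfkb2 was 85.4 ± 4.22 CPM in mature dendritic cells, 80.7 ± 0.628 CPM in neutrophils and 71.5 ± 14.7 CPM in Ly6c2 monocytes, and the last 2 overlapped. Nfkb1 was highest in Ly6c2 monocytes (1141 ± 41.2 CPM) and conventional dendritic cells (1078 ± 16.6 CPM), with neutrophils at 617 ± 13 CPM. Free RNA itself held 1214 to 2236 CPM of Nfkb1, and in alveolar type 2 cells it was expected to supply 100% of the measured Nfkb1 in every library. The level of Nfkb1 in those cells is read as background.

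**Figure D1:**
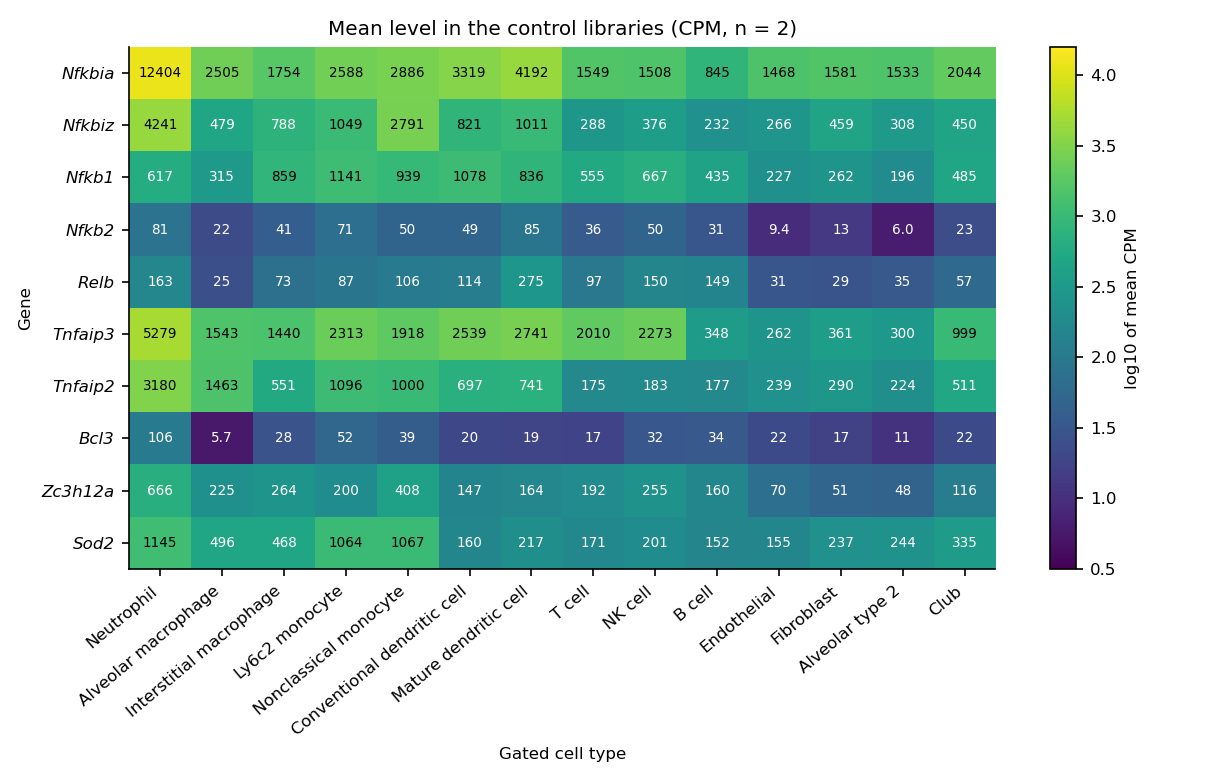
Mean level of each gene (rows) in each gated cell type (columns) over the 2 control libraries, in CPM, with colour on a log10 scale; rows are read across, not against each other. Neutrophils stand highest for Nfkbia (12404 CPM), Nfkbiz (4241 CPM) and Tnfaip3 (5279 CPM), and mature dendritic cells for Relb (275 CPM).

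LPS was first set against control, to ask which members differed on day 3. Sod2 rose in alveolar and interstitial macrophages, and no other member passed the test in a cell type. In CPM, all 4 treated libraries had more Sod2 than both controls in 12 of 12 cell types tested. How often libraries separate like this over all genes was not counted, so such counts, here and below, are description only. They also depend on the scale. In nonclassical monocytes Sod2 was 1286 CPM in SLC_LPS_1 and 1126 CPM in control_2, and edgeR's scaling factors there were 1.19 and 1.01. With that scaling SLC_LPS_1 was not above control_2. In CPM, Nfkbia, Nfkbiz, Tnfaip3, Bcl3, Zc3h12a, Relb and Tnfaip2 were lower in neutrophils of every treated library than in both controls. The differences did not pass with edgeR, and with its scaling Tnfaip2 and Zc3h12a were not lower in LPS_2. The 12 types with at least 20 cells in each library were tested with edgeR (quasi-likelihood test, Benjamini-Hochberg over all genes of a type, called at an adjusted p under 0.05). Of 114 gene by cell type tests of members 2 passed, both Sod2 and both higher, while 0.892% of such tests over all genes passed. The 102 tests other than Sod2 gave 0 calls with edgeR and 9 at an unadjusted p under 0.05, with a median log2 fold change of 0.11. Of all genes, 508 of 7724 reached that unadjusted p in B cells and 2309 of 11005 in alveolar macrophages. The 9 are therefore not read as a result about the members. DESeq2 called 8 of the 114, and the share it called over all genes is not given here.

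In alveolar macrophages, the resident macrophages of the air spaces, Sod2 was 452 and 540.0 CPM in control_1 and control_2. It was 1413 and 1542 CPM in LPS_1 and LPS_2, and 1404 and 1468 CPM in SLC_LPS_1 and SLC_LPS_2. Every treated library lay far above both controls, and the treated groups were close to each other. The log2 fold change after LPS was 1.81 (SE 0.23, edgeR adjusted p = 0.0192), where 3.48% of genes in this cell type passed. In interstitial macrophages, those of the lung tissue, Sod2 was 477 and 459 CPM in controls, 1323 and 1461 CPM with LPS, and 1152 and 1442 CPM with LPS and SLC activation. The controls were again well below all treated libraries. The log2 fold change after LPS was 1.65 (SE 0.25, edgeR adjusted p = 0.0299), where 1.87% of genes passed. Of alveolar macrophages 24.3% to 67.4% per library led the next class by only 1 marker, and of interstitial ones 27.0% to 67.3%. The median alveolar macrophage had 1 of 6 neutrophil markers in controls and 2 or 3 in treated libraries. For interstitial macrophages it was 0 or 1 in controls and 1 to 3 in treated libraries. The part of neutrophil RNA in these Sod2 levels was not tested. Free RNA was expected to supply at most 19.4% of Sod2 in any library of alveolar macrophages and at most 34.3% in interstitial macrophages. The free RNA itself held 277 and 392 CPM of Sod2 in controls and 1278 to 1392 CPM in treated libraries. Its expected share of Sod2 stayed under 50% in every library in 5 of 12 types, which were neutrophils and the 4 macrophage and monocyte types. In the other 7 it went past that in at least 1 library, reaching 73.0% in NK cells of LPS_2, 82.1% in endothelial cells of LPS_1 and 100% in those of SLC_LPS_2. With free RNA subtracted, the log2 fold change after LPS in those 7 types ran from 0.33 to 3.34, with 0 of the 7 called.

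Both calls ended without control_1 or without control_2 (adjusted p 0.153 to 0.365), and with free RNA subtracted, where the log2 fold changes were 1.55 (adjusted p = 0.0915) and 1.44 (adjusted p = 0.174). With the replicate number as a block the adjusted p was 0.0544 and 0.05, and a stricter marker gate gave 1.36 in interstitial macrophages (adjusted p = 0.0938). Across the 12 types the Sod2 log2 fold change after LPS ran from 0.97 in NK cells to 1.99 in club cells, with a median of 1.49, and it had an unadjusted p under 0.05 in all 12. In some other types the LPS libraries differed from each other. In Ly6c2 monocytes Sod2 was 1053 and 1075 CPM in controls, 1794 CPM in LPS_1 and 3044 CPM in LPS_2. In T cells LPS_2 was instead the lowest treated library, with 237 CPM against 476 CPM in LPS_1 and 172 and 169.7 CPM in controls.

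**Figure D2:**
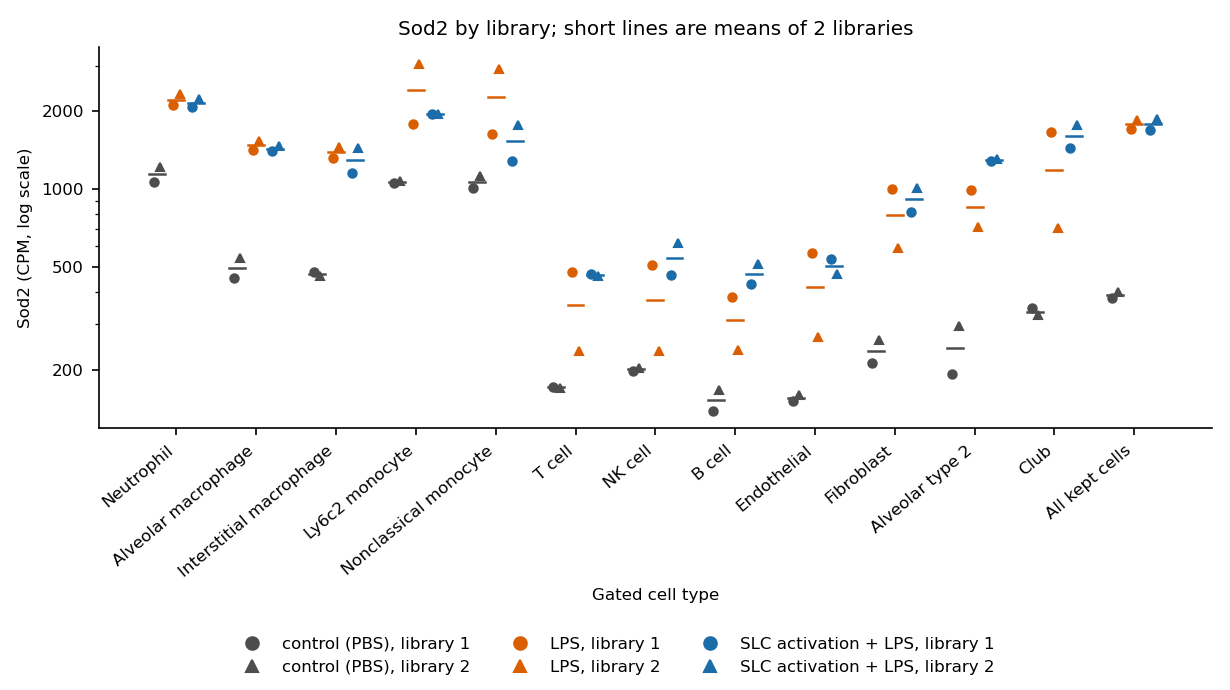
Sod2 in CPM (log axis) in each of the 6 libraries for the 12 tested cell types and all kept cells; circles and triangles are the first and second library of a group, and short lines are group means. In CPM, all treated libraries lie above both controls in every tested type, as in alveolar macrophages (1404 to 1542 against 452 to 540.0 CPM).

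In neutrophils 8 of the 10 members had a negative log2 fold change after LPS, with a median of −0.41 against 0.05 over all 13112 genes tested. None of the 10 passed with edgeR, where 1.22% of all genes did. An unadjusted p under 0.05 was reached by 2 of the 10 and by 2347 of the 13112 genes. Nfkbia was 12341 and 12467 CPM in controls, 8000 and 5727 CPM with LPS alone, and 6155 and 9754 CPM after SLC activation plus LPS. The 4 treated libraries spread widely but all lay below the controls (log2 fold change after LPS −0.73, SE 0.39, edgeR adjusted p = 0.363). Nfkbiz was 4174 and 4309 CPM in controls, 2380 and 2441 CPM with LPS alone, and 1931 and 2233 CPM after SLC activation plus LPS. Its 3 groups did not overlap in neutrophils. Tnfaip3 was 5644 and 4913 CPM in controls, 3450 and 3381 CPM with LPS alone, and 2438 and 2722 CPM after SLC activation plus LPS, again without overlap. Bcl3 was 108 and 104 CPM in controls and 41.7 to 59.6 CPM in the 4 treated libraries. Zc3h12a (440.5 to 571 CPM against 657 to 675 CPM), Relb (107 to 146 against 156 to 170.4 CPM) and Tnfaip2 (1441 to 2838 against 3024 to 3336 CPM) were lower in all 4 treated libraries as well.

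Sod2 had the opposite sign in the same cells. Neutrophil Sod2 was 1069 and 1220 CPM in controls and 2079 to 2334 CPM in the 4 treated libraries (log2 fold change after LPS 1.12, SE 0.34, edgeR adjusted p = 0.137), and it passed with DESeq2 (adjusted p = 0.0456). Nfkb1 was 608 and 626 CPM in controls, 676 and 774 CPM with LPS alone and 924 and 588 CPM after SLC activation plus LPS, so the LPS libraries lay above the controls and the SLC_LPS libraries on either side of them. The free share of neutrophil Nfkb1 was 26.2% to 83.7%. Nfkb2 in neutrophils was 20.4 CPM in LPS_2 and 72.9 to 88.8 CPM in the other 5 libraries. LPS_2 had the lowest Nfkb2 of the 6 libraries in 11 of 12 cell types. Without LPS_1 the LPS group is LPS_2 alone, and the log2 fold change of Nfkb2 in neutrophils was −1.63. That value rests on 1 library and is not read as an effect of LPS. In the same fit the signs of Tnfaip2 (−0.25) and Zc3h12a (−0.27) turned (0.06 and 0.02).

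Neutrophils of treated lungs held another mix of states, described here without a test. Cells with UMIs of at least 2 of 5 granule genes (Ngp, Camp, Ltf, Chil3, Lcn2), and not of 2 interferon-response genes, were 11.1% to 16.7% of neutrophils in controls and 19.3% to 42.4% in treated libraries. Cells in neither state were 75.2% to 82.5% in controls and 42.3% to 51.9% in treated libraries. Granule-state cells had less Nfkbia than cells in neither state in 6 of 6 libraries, at 0.724 to 0.855 times their level. The same direction was seen for Nfkbiz, Relb, Tnfaip3 and Tnfaip2 in 6 of 6 libraries. Within the cells in neither state alone, Nfkbia was 12908 to 13116 CPM in controls and 6464 to 10611 CPM in treated libraries. Tnfaip3 was 5084 to 5937 CPM against 2579 to 3685 CPM there, and Nfkbiz 4338 to 4471 CPM against 2149 to 2584 CPM, so the groups did not overlap within this state either. The summed level of 12 genes that respond to tissue dissociation, such as Fos and Hspa1a, was 7124 and 5594 CPM in control neutrophils and 3804 to 8007 CPM in treated ones. These ranges overlapped, and the part of dissociation in the result was not tested.

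**Figure D3:**
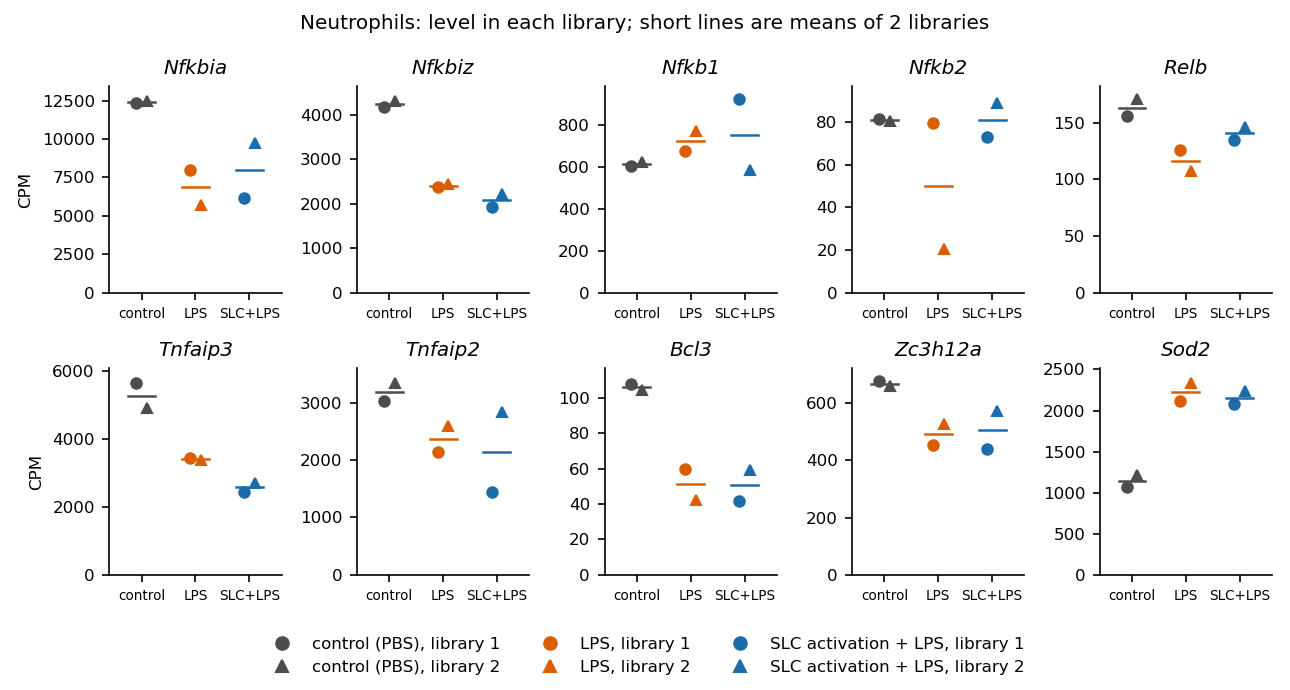
Level of the 10 genes in neutrophils of each library (CPM, linear axes from 0), with circles and triangles for the first and second library and short lines for group means. In CPM, Nfkbia, Nfkbiz, Tnfaip3, Tnfaip2, Bcl3, Relb and Zc3h12a lie lower in all 4 treated libraries than in both controls, and Sod2 lies higher. With edgeR's scaling this does not hold for Tnfaip2 and Zc3h12a in LPS_2.

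Outside neutrophils none of Nfkbia, Nfkbiz, Tnfaip3 and Bcl3 was called after LPS, and most values were positive for 3 of the 4. Nfkbia was positive in 8 of 11 other cell types, up to 0.84 in fibroblasts, Nfkbiz in 8 of 11, Tnfaip3 in 9 of 11 and Bcl3 in 4 of the 8 tested. Of fibroblast Nfkbia, free RNA was expected to supply 48.3% and 40.5% in controls, 66.9% in LPS_1 and 8.04% in LPS_2. Its share of Nfkbiz in LPS_1 was 100% in fibroblasts and endothelial cells, so these signs are not read as changes within cells. With library totals Nfkbiz turned negative in alveolar macrophages and alveolar type 2 cells, Tnfaip3 in alveolar macrophages and Ly6c2 monocytes, and Bcl3 in endothelial cells and fibroblasts. In endothelial cells, which line the vessels, Tnfaip3 was 280.0 and 244 CPM in controls, 466 and 711 CPM with LPS alone, and 252 and 223 CPM after SLC activation plus LPS. LPS_1 and LPS_2 were both above the other 4 libraries there (log2 fold change after LPS 1.36, SE 0.34, edgeR adjusted p = 0.177). Free RNA was expected to supply 94.0% and 93.3% of endothelial Tnfaip3 in controls, 100% in LPS_1 and both SLC_LPS libraries, and 19.8% in LPS_2. In fibroblasts Tnfaip3 was 343 and 379 CPM in controls, 808 and 847 CPM with LPS alone and 321 and 729 CPM after SLC activation plus LPS (LPS against control 1.30, SE 0.44, edgeR adjusted p = 0.581). The free share of fibroblast Tnfaip3 was 17.2% in LPS_2 and 71.7% to 100% in the other 5 libraries, so in both types LPS_2 alone had most of its Tnfaip3 beyond the expected free RNA. Against plain library totals, edgeR's scaling moved the median log2 value of the members by −0.24 to 0.24 over cell types and comparisons.

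Whether the LPS effect differed between neutrophils and another type was tested directly, with the library as a block. Alveolar macrophages against neutrophils gave 0 of 10 members with edgeR and 0 with DESeq2, with 2 and 4 at an unadjusted p under 0.05, and 2 calls when LPS_2 was left out. The same test over all 11 other cell types was added after seeing the data. It called 2 of 110 member tests, both Nfkbia, where 0.79% of such tests over all genes passed. The LPS effect on Nfkbia was higher than in neutrophils by 1.36 on the log2 scale in Ly6c2 monocytes (SE 0.29, edgeR adjusted p = 0.0416) and by 1.21 in nonclassical monocytes (SE 0.31, edgeR adjusted p = 0.0348). In Ly6c2 monocytes Nfkbia was 2635 and 2541 CPM in controls and 3323 and 3015 CPM after LPS. Neither call held in every fit that left out 1 library.

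In the sum over all kept cells, 1 of 10 members passed after LPS, where 7.84% of genes did. Sod2 rose from 379 and 401 CPM in controls to 1711 and 1856 CPM (log2 fold change 2.57, SE 0.23, edgeR adjusted p = 0.0159), a call that ended without either control (adjusted p 0.130 to 0.195). All 10 members had positive values there, with a median of 0.89. edgeR's scaling raised their median log2 value by 0.38 there, and the 10 were also positive with library totals. Neutrophils, which have the highest level of most members, made up more of these sums after LPS. A change in cell mixture and a change of level within cells cannot be told apart in them, nor can fewer cells and less RNA per cell.

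SLC activation plus LPS was then set against the same controls, which this comparison shares with the first. Sod2 rose in both macrophage types and also in alveolar type 2 cells, the surfactant-making cells of the alveolus. Of 114 member tests 3 passed, all Sod2 and all higher, where 0.929% of tests over all genes passed. The other members gave 0 calls with edgeR in 102 tests, 13 of them at an unadjusted p under 0.05. Of all genes, 572 of 8278 reached that unadjusted p in endothelial cells and 2420 of 10107 in interstitial macrophages. DESeq2 called 11 of the 114, again without the share over all genes beside it.

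Sod2 had a log2 fold change of 1.72 in alveolar macrophages (SE 0.23, edgeR adjusted p = 0.0213, with 3.24% of genes passing) and of 1.55 in interstitial macrophages (SE 0.25, edgeR adjusted p = 0.0263, with 2.78% passing). In alveolar type 2 cells Sod2 was 193 and 294 CPM in controls, 991 and 716 CPM with LPS alone, and 1281 and 1313 CPM after SLC activation plus LPS. The 3 groups did not overlap. The log2 fold change against control was 2.48 (SE 0.38, edgeR adjusted p = 0.0207), where 0.461% of genes passed. These were sums over 30 to 113 cells, and free RNA was expected to supply 24.2% to 70.6% of their Sod2. All 3 calls ended without control_1 or without control_2 (adjusted p 0.136 to 0.322) and with free RNA subtracted (0.0801 to 0.338). The macrophage calls also ended without SLC_LPS_1 or without SLC_LPS_2 (0.0508 to 0.123), and a stricter cell filter gave 1.61 in alveolar type 2 cells (adjusted p = 0.141). With the replicate number as a block the adjusted p was 0.0583 in alveolar macrophages and 0.0598 in alveolar type 2 cells, and the interstitial macrophage call held (0.0477) but ended with a stricter gate (0.0730).

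Neutrophils again had 8 of 10 negative values, with a median of −0.56 against 0.05 over all genes. None of the 10 passed with edgeR, where 1.09% of genes did. An unadjusted p under 0.05 was reached by 4 of the 10 and by 2713 of 13112 genes. Nfkbiz (−1.12, SE 0.34, adjusted p = 0.119), Tnfaip3 (−1.12, SE 0.34, adjusted p = 0.117) and Bcl3 (−1.16, SE 0.31, adjusted p = 0.0866) had the most negative values in this edgeR fit. Nfkbiz and Tnfaip3 passed with DESeq2 (adjusted p 0.0354 and 0.0306), and the share it called over all genes is not given here. Fits without LPS_1 or LPS_2, which are not compared here, leave 1 LPS library and change the pooled spread. Calls of those fits are not read as results about the members. The value of Nfkb2 (−0.09) turned to 0.0011 with library totals.

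Tnfaip3 was below both controls in both SLC_LPS libraries in 8 of 12 cell types. Over all 114 member tests, both SLC_LPS libraries lay above both controls in 33 and below both in 33. The share over all genes was not counted. In alveolar macrophages Tnfaip3 was 1538 and 1547 CPM in controls, 1122 and 1514 CPM with LPS alone, and 689 and 856 CPM after SLC activation plus LPS (−0.81 against control, SE 0.26, edgeR adjusted p = 0.130). In T cells it was 2256 and 1763 CPM in controls, 1719 and 2073 CPM with LPS alone, and 1149 and 1247 CPM after SLC activation plus LPS (−0.70 against control, SE 0.24, edgeR adjusted p = 0.383). In both types the SLC_LPS libraries were the lowest of the 6. Nfkb1 was below both controls in 5 of 12 types. In interstitial macrophages Nfkb1 was 878 and 839.8 CPM in controls, 502 and 901 CPM with LPS alone, and 388 and 371 CPM after SLC activation plus LPS (−1.11 against control, SE 0.31, edgeR adjusted p = 0.0894). Free RNA was expected to supply 100% of that level in LPS_1 and SLC_LPS_2. Tnfaip2 was above both controls in 6 of 12 types, and its free share went past 50% in some library in 7 of the 12. In T cells Tnfaip2 was 152 and 198 CPM in controls, 386 CPM in LPS_1, 52.0 CPM in LPS_2, and 246 and 435 CPM in the SLC_LPS libraries. LPS_2 was the lowest of the 6 there, and free RNA was expected to supply 36.7% to 100% of T cell Tnfaip2.

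Tests against neutrophils over the 11 other types, also added after seeing the data, called 9 of 110 member differences, where 1.24% of such tests over all genes passed. Of the 9, 8 were higher than in neutrophils. Nfkbiz in NK cells, killer lymphocytes, had the lowest adjusted p of the 9. It was 361 and 391 CPM in controls, 727 and 385 CPM with LPS alone, and 727 and 675 CPM after SLC activation plus LPS, so both SLC_LPS libraries lay above the controls. The free share of that level was 19.0% to 50.9%. The difference from neutrophils was 2.13 on the log2 scale (SE 0.38, edgeR adjusted p = 0.00372). No call of the 9 held in every fit without 1 library, and with free RNA subtracted 0 of them passed.

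**Figure D4:**
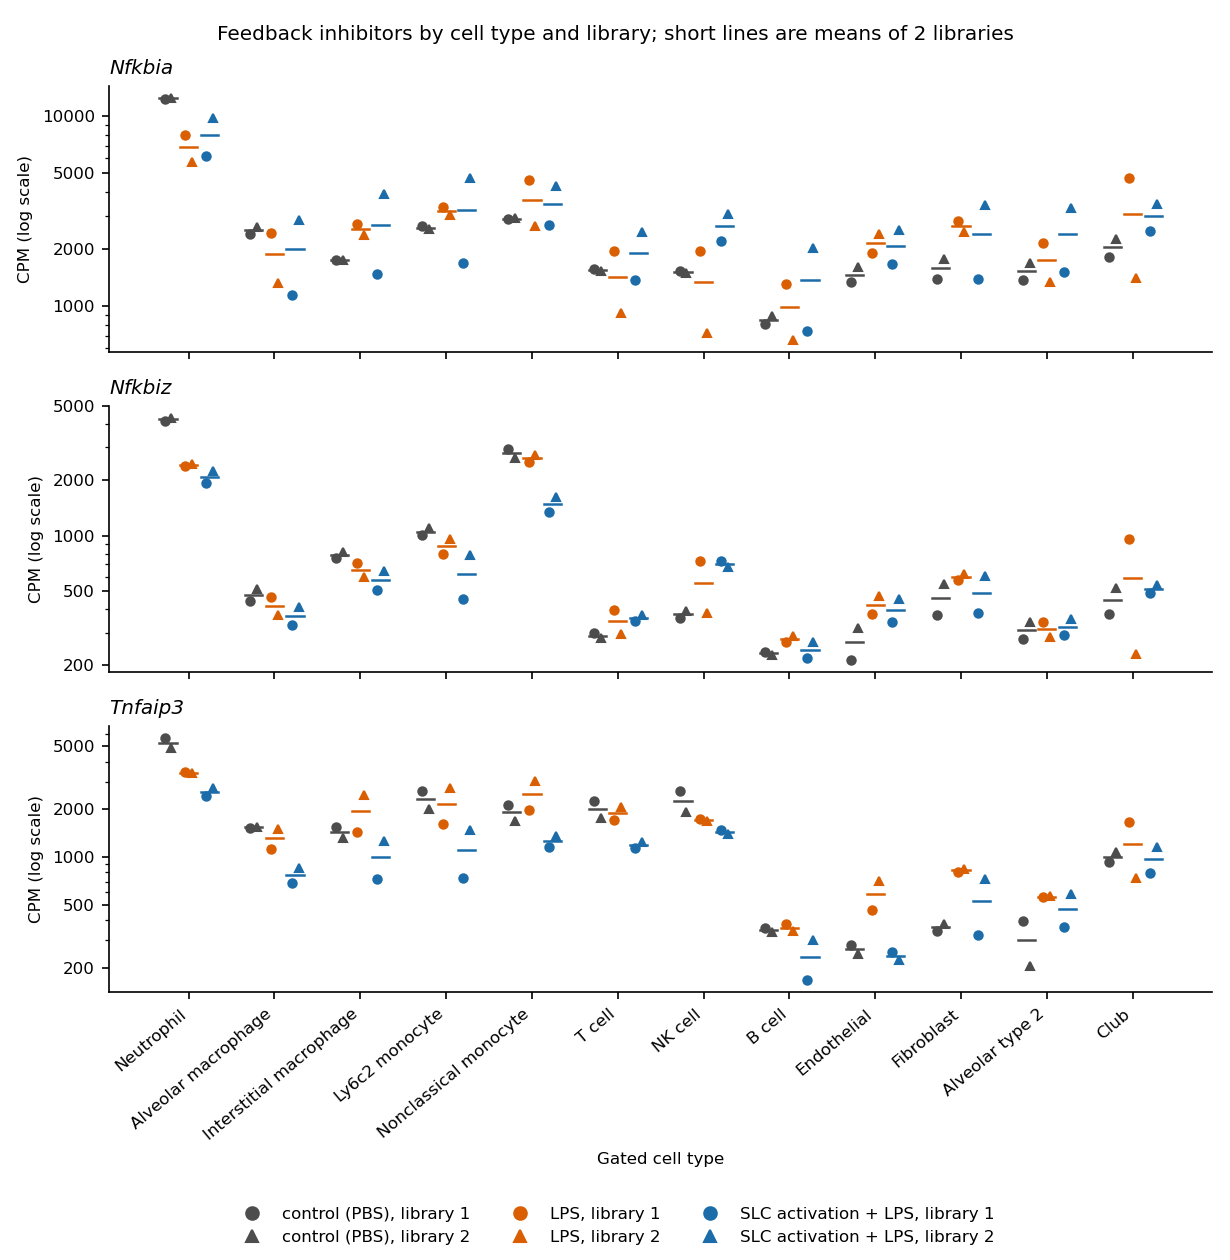
Nfkbia, Nfkbiz and Tnfaip3 in CPM (log axes) in the 12 tested cell types, by library; circles and triangles are the first and second library of a group and short lines are means. Treated libraries lie below the controls in neutrophils for all 3 genes, while in NK cells Nfkbiz reaches 727 and 675 CPM with SLC activation plus LPS against 361 and 391 CPM in controls.

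In all kept cells 2 of 10 members passed in this comparison, where 12.4% of genes did. Sod2 rose to 1693 and 1873 CPM (2.57, SE 0.23, edgeR adjusted p = 0.0133). Zc3h12a was 211 and 172 CPM in controls, 278 and 299.8 CPM with LPS alone, and 266 and 345 CPM after SLC activation plus LPS (1.06, SE 0.25, edgeR adjusted p = 0.0414). The Zc3h12a call ended with library totals (0.68, adjusted p = 0.0805), and both calls ended without either control or without SLC_LPS_2 (adjusted p 0.0796 to 0.273). The Zc3h12a call also ended without SLC_LPS_1 (adjusted p = 0.0671), with the replicate block (0.0759) and with a stricter cell filter (0.0716).

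SLC activation plus LPS against LPS asks what SLC activation added. No member passed in any cell type: edgeR called 0 of 114 tests, with 11 at an unadjusted p under 0.05, and DESeq2 called 0, also with 11. Of the 11 with edgeR, 6 were Tnfaip3, in cell types of the same libraries, so they are not independent. In fibroblasts 294 of 12369 genes reached that unadjusted p with edgeR, and in nonclassical monocytes 287 of 2802. These are the lowest and the highest share among the tested types, and neutrophils had 410 of 13112. Over all genes and types 0.00386% of tests passed. Leaving out LPS_1 left LPS_2 alone for LPS, and the calls of that fit are not read as results about the members. Over the 114 tests both SLC_LPS libraries lay above both LPS libraries in 9 and below both in 23, and all genes were not counted. Tnfaip3 had a negative value in 12 of 12 cell types, from −1.47 in endothelial cells to −0.26 in alveolar type 2 cells, and the treated groups did not overlap in 10 of them. At both ends of that range free RNA was expected to supply 100% of Tnfaip3 in both SLC_LPS libraries. In the 7 types where the free share stayed under 50% in every library, the values ran from −1.11 in Ly6c2 monocytes to −0.28 in NK cells. In nonclassical monocytes Tnfaip3 was 1991 and 3044 CPM with LPS alone and 1158 and 1352 CPM after SLC activation plus LPS (−1.07, SE 0.36, edgeR adjusted p = 0.378). The endothelial value, from the levels given above, had SE 0.36, edgeR adjusted p = 0.665. Nfkb1 was also negative in 12 of 12 types, from −0.98 to −0.22, with 5 types not overlapping. In SLC_LPS_2 free RNA was expected to supply over 50% of Nfkb1 in 12 of the 12 types and all of it in 7, against 3 and 1 in LPS_2, so this count is not read as a difference within cells. Nfkbiz was negative in 9 of 12 types. In nonclassical monocytes Nfkbiz was 2499 and 2722 CPM with LPS alone and 1344 and 1618 CPM after SLC activation plus LPS (−0.87, SE 0.32, edgeR adjusted p = 0.384). Nonclassical monocytes were sums of 21 to 519 cells, of which 47.6% to 71.4% per library led the next class by only 1 marker.

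Sod2 had values from −0.65 to 0.65 between the treated groups, with 0 of 12 types at an unadjusted p under 0.05. For alveolar macrophages the difference was −0.09 (SE 0.23). Nfkbia in neutrophils gave 0.01 (SE 0.39), and there the libraries of a group differed more than the group means. SLC_LPS_2 had the highest Nfkbia of the 4 treated libraries in 10 of 12 cell types and the highest Tnfaip2 in 11 of 12.

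**Figure D5:**
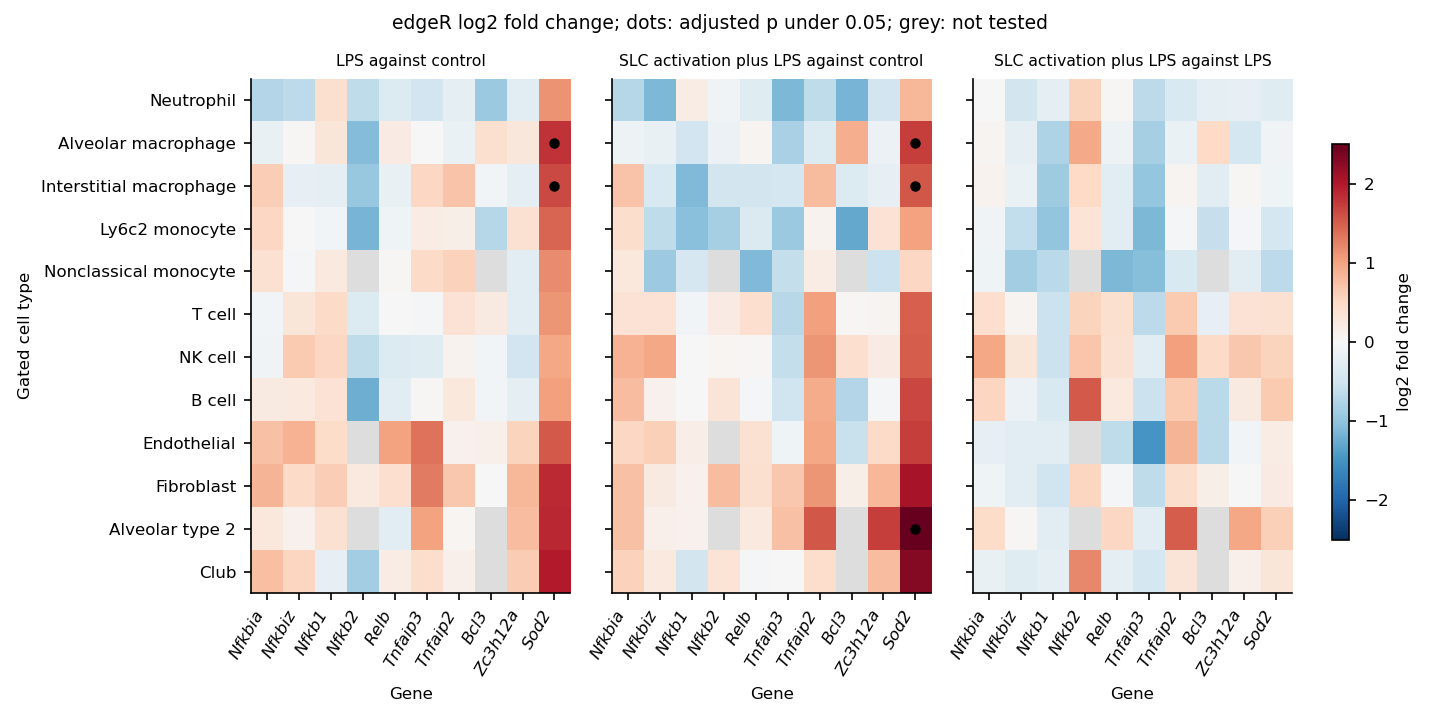
edgeR log2 fold changes of the 10 genes in the 12 cell types for the 3 comparisons; red is higher, blue is lower, grey was not tested and dots mark an adjusted p under 0.05. The dots fall on Sod2, 2 for LPS and 3 for SLC activation plus LPS, with none between the treated groups.

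Another 41 genes of the pathway, from receptors to kinases and adaptors, were counted for context. After LPS 6 of their 430 cell type tests passed, all higher, which is 1.40% where 0.892% passed over all genes. After SLC activation plus LPS 7 passed, all higher, or 1.63% where 0.929% did. None of these calls held without control_1 or without control_2, and none passed with free RNA subtracted, where Cd14 in B cells was too low for a test. Ikbke, which encodes an IKK-related kinase, rose in 3 types after LPS. In neutrophils Ikbke was 42.5 and 63.8 CPM in controls and 308 and 261 CPM after LPS (2.57, SE 0.33, edgeR adjusted p = 0.0152). In alveolar macrophages it was 5.64 and 6.49 CPM in controls and 70.4 and 59.9 CPM after LPS (3.66, SE 0.29, edgeR adjusted p = 0.0111), with a free share of 82.6% and 100% in controls, 62.2% in LPS_1 and 18.2% in LPS_2. Interstitial macrophages gave 3.13 (SE 0.31, edgeR adjusted p = 0.0101). Tlr4, the receptor for LPS, rose in neutrophils from 28.8 and 24.7 CPM to 81.2 and 83.7 CPM (1.78, SE 0.32, edgeR adjusted p = 0.0346). In alveolar macrophages Tnip3, which encodes an A20-binding protein, rose by 2.12 and Irak3, a brake on Toll-like receptor signalling, by 1.80 (edgeR adjusted p = 0.0295 and 0.0316). After SLC activation plus LPS, Tlr4 also passed in Ly6c2 monocytes (2.67, edgeR adjusted p = 0.0488), on 5 and 1 UMIs in controls. Cd14, the LPS co-receptor, passed in B cells (2.44, edgeR adjusted p = 0.0246), where it was 227 and 231 CPM. Free RNA was expected to supply 96.3% and 100% of that and 100% of the control level, so it is read as background. Between the treated groups edgeR called 0 of the 430.

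Levels across the 72 sums of 6 libraries by 12 cell types were also compared between genes, as a description. Among 3459 genes, those most like Sod2 were Il1rn (Pearson r = 0.92) and Clec4e (r = 0.92), and those most like Tnfaip2 were Nlrp3 (r = 0.93) and Alox5ap (r = 0.93). Nfkbia was most like Rabgef1 (r = 0.82) and Rab11fip1 (r = 0.81), Tnfaip3 like Rab8b (r = 0.88) and Tnfrsf1b (r = 0.83), and Nfkbiz like Ndel1 (r = 0.87) and Lilrb4a (r = 0.86). Relb paired with Dennd4a (r = 0.88), and Zc3h12a with Lcp1 (r = 0.89) and Prr13 (r = 0.87). For Nfkb1 the closest were Tab2 (r = 0.84) and Ptprc (r = 0.83), and for Nfkb2 Fmnl1 (r = 0.82) and Hcls1 (r = 0.80). Bcl3 had no closer partners than Otud5 (r = 0.65) and Tmcc1 (r = 0.63). These points share libraries, depth and free RNA, and they are not independent.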

How the data were processed

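Lung cells of 6 mice were captured with BD Rhapsody after enzymatic digestion and removal of dead cells, per the labels' protocols. The authors deposited a matrix of UMI counts per gene and barcode for each library. The submitters' processing notes name GRCm39 (mm39), and the sources used here do not name the counting tool. Genes are known by symbol only. Total UMIs were 31589233 to 48641470 per library, and replicates differed beyond sampling noise (chi-square per degree of freedom 33.2, 224 and 149).

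Barcodes with at least 500 UMIs and 300 genes and under 20% mitochondrial UMIs were kept. A cell joined the class of which it had most of 6 markers, at least 2 and more than of any other class, and tied cells were left out. No doublet caller was applied; an alternative left out the top 6% of UMIs. Counts were summed per library and type. edgeR 4.0.16 (TMM, filterByExpr, robust quasi-likelihood, R 4.3.3) was fitted to all 6 libraries with group as the only term, and DESeq2 1.42.0 was an alternative. Free RNA was the profile of barcodes under 100 UMIs, scaled in each type by genes that no gate uses; that gene list was chosen after the data were seen.

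The named genes are the 10 members and, of 41 further pathway genes, those called, at most the 4 with the smallest p per comparison and type. Likeness is Pearson's r of log2(CPM + 1), over genes with a mean of at least 50 CPM, and the 2 closest genes are named, except 1 that is not reported here. Members and lists were chosen with earlier results of these data known. The statistics were tested on simulated data with the same spread in all groups, unlike the real replicates. Of 2-fold changes 29.9% were called in neutrophils and 37.3% in alveolar macrophages, and of 4-fold changes 98.5% in each. False calls were 8 of 12801 and 4 of 10657 genes. A 2-fold change would thus mostly be missed there. Replicate numbers in the labels were used only as names. Deviations of LPS_1 and SLC_LPS_1 had r = −0.18 over all kept cells and −0.31 in alveolar type 2 cells. Those of control_1 and LPS_1 had r = 0.06 and 0.18. These values cannot show whether the numbers stand for a batch.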

Additional observations from a re-analysis of the deposited data

Results flagged for a closer look

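Differences between a cell type and neutrophils in the effect of treatment passed in 11 member tests, and each was looked at again. After LPS, Nfkbia differed by 1.36 (SE 0.29, edgeR adjusted p = 0.0416, called in 4 of 6 fits that left out 1 library) in Ly6c2 monocytes. In nonclassical monocytes Nfkbia differed by 1.21 (SE 0.31, edgeR adjusted p = 0.0348, called in 2 of 6 fits that left out 1 library) after LPS. It was the one call of the 11 that passed with free RNA subtracted (adjusted p = 0.00424).

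The other 9 concern SLC activation plus LPS against control. Where 2 of 6 fits are given for them, these are the fits without LPS_1 or LPS_2, which are not in the compared groups. Each such call ended in every fit that left out a control or an SLC_LPS library. Nfkbia differed by 1.67 (SE 0.37, edgeR adjusted p = 0.0239, called in 2 of 6 fits that left out 1 library) in NK cells. In interstitial macrophages Nfkbia differed by 1.32 (SE 0.29, edgeR adjusted p = 0.0461, called in 2 of 6 fits that left out 1 library). Nfkbiz differed by 2.13 (SE 0.38, edgeR adjusted p = 0.00372, called in 5 of 6 fits that left out 1 library) in NK cells. In endothelial cells Nfkbiz differed by 1.79 (SE 0.49, edgeR adjusted p = 0.0494, called in 2 of 6 fits that left out 1 library), and free RNA was expected to supply 25% to 100% of its level. Tnfaip2 differed by 2.35 (SE 0.63, edgeR adjusted p = 0.0143, called in 2 of 6 fits that left out 1 library) in alveolar type 2 cells, with 68.1% to 100% expected from free RNA. For interstitial macrophages the Tnfaip2 difference was 1.49 (SE 0.32, edgeR adjusted p = 0.0430, called in 2 of 6 fits that left out 1 library). Zc3h12a differed by 2.46 (SE 0.60, edgeR adjusted p = 0.00445, called in 3 of 6 fits that left out 1 library) in alveolar type 2 cells, where it was 65.8 and 29.8 CPM in controls and 146 and 149 CPM after SLC activation plus LPS. The control levels were 15 and 9 UMIs, and free RNA was expected to supply 100% in both controls and SLC_LPS_2 and 47.0% in SLC_LPS_1. Bcl3 differed by 2.15 (SE 0.45, edgeR adjusted p = 0.0412, called in 2 of 6 fits that left out 1 library) in alveolar macrophages, on 15 to 53 UMIs per library with 23.6% to 97.4% expected from free RNA. Nfkb1 was the one lower value, at −1.25 (SE 0.28, edgeR adjusted p = 0.0471, called in 2 of 6 fits that left out 1 library) in interstitial macrophages, with 10.5% to 100% from free RNA. With library totals, Nfkbia in Ly6c2 monocytes (adjusted p = 0.0767) and interstitial macrophages (0.0629), endothelial Nfkbiz (0.0757) and alveolar type 2 Tnfaip2 (0.0532) did not pass. The part of free RNA in these differences was not tested beyond its subtraction.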

How the results depend on the processing

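The 2 member calls after LPS became 12 with no filter on low counts, 8 with DESeq2, 0 with the replicate number as a block, 1 with a stricter gate and 0 with free RNA subtracted. Leaving out 1 library gave 0 to 25: 0 without either control, 25 without LPS_1 and 12 without LPS_2. The 3 calls after SLC activation plus LPS became 12 with no filter, 11 with DESeq2, 1 with the replicate block and 0 with free RNA subtracted, and 0 to 22 without 1 library: 0 without either control, 22 without LPS_1 or LPS_2 and 1 without either SLC_LPS library. The 0 calls between the treated groups became 1 with no filter and 0 to 26 without 1 library, 26 being without LPS_1. The difference between alveolar macrophages and neutrophils after LPS kept 0 calls, with 0 to 2 without 1 library, 2 being without LPS_2. A fit without LPS_1 or LPS_2 assumes that the lone library varies like the other groups. The share of all genes called in each alternative fit is not given here. The counts of member calls in the alternatives are therefore not read as results about the members. A block with the SLC_LPS numbers crossed, added after seeing the data, gave 3, 5 and 0 calls in the 3 comparisons. The difference tests have the library as their block, so no further replicate block was fitted there.

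Signs turned for neutrophil Nfkb1 after SLC activation plus LPS (0.18), at −0.15 with free RNA subtracted and −0.059 to 0.45 without 1 library, and for Nfkb2 (−0.09), at 0.0011 with library totals, 0.025 with no filter and −0.28 to 0.15 without 1 library. After LPS, neutrophil Tnfaip2 ran over −0.58 to 0.059 and Zc3h12a over −0.56 to 0.017 without 1 library. Sod2 in nonclassical monocytes was −0.54 after SLC activation plus LPS with the stricter gate. Of the other alternatives for single genes 576 kept direction and side of the threshold, 62 newly passed and 38 no longer passed. The causes were not tested.

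With 2 libraries a group, the member calls in cell types ended without either control. Of the 11 differences from neutrophils, Nfkbiz in NK cells after SLC activation plus LPS passed without control_1 (adjusted p = 0.0451) or control_2 (0.0355) and ended without SLC_LPS_1 (0.105), and the other 10 ended without either control. Free RNA and depth differed between libraries, and the smallest tested sum held 21 cells.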

Other observations

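Conventional dendritic cells were too few for a test, with as few as 7 in a library. Their Tnfaip3 was 2832 and 2245 CPM in controls, 917 and 1392 CPM with LPS alone and 881 and 916 CPM after SLC activation plus LPS, so all 4 treated libraries lay below both controls. Free RNA was expected to supply 4.52% to 32.8% of it. The gate is weak for these cells: 60.9% to 85.7% of them led by only 1 marker, and a stricter gate kept 61 and 41 cells in controls and 1 to 9 in treated libraries.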
